A study of Arabidopsis thaliana with 2 samples.

Results

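The members described here are 8 genes of lateral organ polarity, organ margins and the stem cell niche, out of 37899 nuclear loci in the gene table used. They are 5 YABBY genes, FILAMENTOUS FLOWER (FIL), YABBY3 (YAB3), YABBY5 (YAB5), CRABS CLAW (CRC) and INNER NO OUTER (INO), and 3 WUSCHEL-RELATED HOMEOBOX (WOX) genes, PRESSED FLOWER (PRS, also WOX3), WOX1 and WUSCHEL (WUS). A peak was given to a member when the authors' annotation named that gene as the nearest promoter or as the locus the peak lay in. By this rule 2 of the 529 deposited peaks belonged to members. A further peak, assigned to GOS12 next to FIL, was kept apart.

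The peaks come from 1 chromatin immunoprecipitation sequencing (ChIP-seq) library of Arabidopsis thaliana inflorescences, made with rabbit serum against the flower-initiating transcription factor LEAFY (LFY). The only other library was 1 input made without that serum. Both came from ap1 cal1 plants, mutant in the floral regulators APETALA1 and CAULIFLOWER, that carried a fusion of LFY with a glucocorticoid receptor domain (LFY-GR), driven by 35S, a promoter active in most tissues. Plants were grown for 4 weeks, treated with 10 µM dexamethasone, which lets such fusions enter the nucleus, and sampled 4 h later. All groups thus shared the mutations, the transgene and the treatment, and no untreated or untransformed library was used here. The serum recognises LFY itself, so fusion and native protein cannot be told apart. With 1 library per group no value has a replicate error and no test between conditions was possible. The files give no read counts, so depth is unknown, and no RNA levels, so the labelled tissue was not checked against marker genes.

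YABBY proteins are zinc finger transcription factors found in seed plants. In Arabidopsis they are made mostly on the abaxial (lower) side of lateral organs, where they promote blade growth and keep meristem programmes out of the organ. WOX proteins are homeodomain transcription factors. WUS maintains the stem cells of shoot and floral meristems, while PRS and WOX1 act together at the organ margin, at the border between upper and lower side, to widen the blade.

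FIL and PRS each had 1 peak, and YAB3, YAB5, CRC, INO, WOX1 and WUS had none. The share of members with a peak was 25% (2 of 8, 95% Wilson interval 7.15 to 59.1, counting error only), beside 570 of 37899 nuclear loci named in the same way (1.5%). Among protein-coding loci the background was 1.98% (543 of 27444). Both members with a peak are on chromosome 2, which holds 4 of the 8 members and 76 of the peaks, and where 1.31% of loci had one. The set holds 8 genes, picked with earlier results of these data known, so these shares are a description and no test was made.

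The 2 members with a peak differed in the limits under which they were counted. FIL, but not PRS, was counted when only peaks centred within 1 kb of a TSS were used (1 of 8, beside 0.865% of all nuclear loci). Within 3 kb both were (2 of 8, beside 1.36%). PRS, but not FIL, was among the 265 higher-scoring peaks (1 of 8, beside 0.755%), and neither was among the 133 highest-scoring (0 of 8, beside 0.377%). Both were named as nearest promoter (2 of 8, beside 1.32%), and counting protein-coding neighbours of such genes added no member (2 of 8, beside 3.78%). The 3.78% is over coding and non-coding loci, although only protein-coding loci could be added as neighbours.

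The score given below was assigned to each peak by the authors' peak caller, and it ranks peaks within this list only. It ran from 50.03 to 2952.3, with a median of 133 and quartiles of 76.1 and 276.

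FIL (AT2G45190, listed as AFO), a founding member of the YABBY family that specifies abaxial cells in floral organs and restrains meristem genes, had a weak promoter peak. The peak lay on chromosome 2 from 18631199 to 18632215 (TAIR10), was 1017 bp wide and had a score of 54.25. It ranked 502 of 529, and only 27 peaks scored lower (5.11% of the other peaks). Ranked by score per kb of width, 16.7% of the other peaks were lower. Its score was 4.22 above the lowest in the list. Its centre was 995 bp upstream of the transcription start site (TSS), and its edges were 1503 and 487 bp upstream, so that it did not reach the TSS. Of the 214 peaks the annotation placed in promoters, none was centred farther upstream of its assigned TSS than this one. An intergenic peak lay only slightly farther out, centred 1002 bp upstream of its TSS. The place of the FIL peak in its class therefore rests on where the annotation ends that class. The FIL peak thus stood near the lower end of the list by score, less so by score per kb, and at the outer edge of the promoter class by position.

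GOS12 (AT2G45200), which encodes a SNARE protein of Golgi transport, was assigned the strong peak next to FIL. That peak lay on chromosome 2 from 18634454 to 18636267, was 1814 bp wide, and had a score of 887.29, which ranked 17 of 529, and 3 of 76 on the chromosome. It was annotated as intergenic, with its centre 4448 bp downstream of the GOS12 TSS. Of all peaks, 15 (2.84%) were farther from the TSS they were assigned to. Its distance to FIL, the gene on its other side, is not given in the annotation.

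That distance could be read from the list itself. Each deposited distance allows 2 TSS positions, 1 for each strand, which gives 4 combinations for FIL and GOS12. Because the annotation assigns a peak to the closer TSS, only 1 combination fitted both peaks, with both genes on the minus strand, the FIL TSS at position 18630712 and the GOS12 TSS at 18639808. On this reading the GOS12 peak was centred 4649 bp upstream of the FIL TSS, only 201 bp farther than its distance to the GOS12 TSS. It spanned 5555 to 3742 bp upstream of FIL and lay beyond the 3' side of GOS12. Both peaks were therefore on the upstream side of FIL. A check of the distances used all 16 transcripts with 2 or more peaks, and in 16 of them the distances met at 1 TSS within 2 bp. It allowed either strand for each transcript, so it bears on the use of peak midpoints. It cannot test the sign of the distances or the strands read for FIL and GOS12.

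The FIL and GOS12 peaks were 2238 bp apart, with centres separated by 3653 bp. Of the 524 adjacent pairs of peaks on a chromosome, 29 (5.53%) were closer, and the median gap was 108 kb. The score of the GOS12 peak was 16.4 times that of the FIL peak. Among the 49 pairs with a gap of up to 5 kb the median ratio was 2.44, and 1 pair, both of whose peaks were assigned to AT3G07350, had a larger one. The scale of the score is not stated, so these ratios compare scores and not amounts of bound LFY. On the other side of FIL the next peak was centred 9499 bp downstream of the FIL TSS, at AT2G45161, a gene with no described function in the file (score 161.95, rank 224). The region within 20 kb of the FIL TSS held these 3 peaks and no others.

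**Figure D1:**
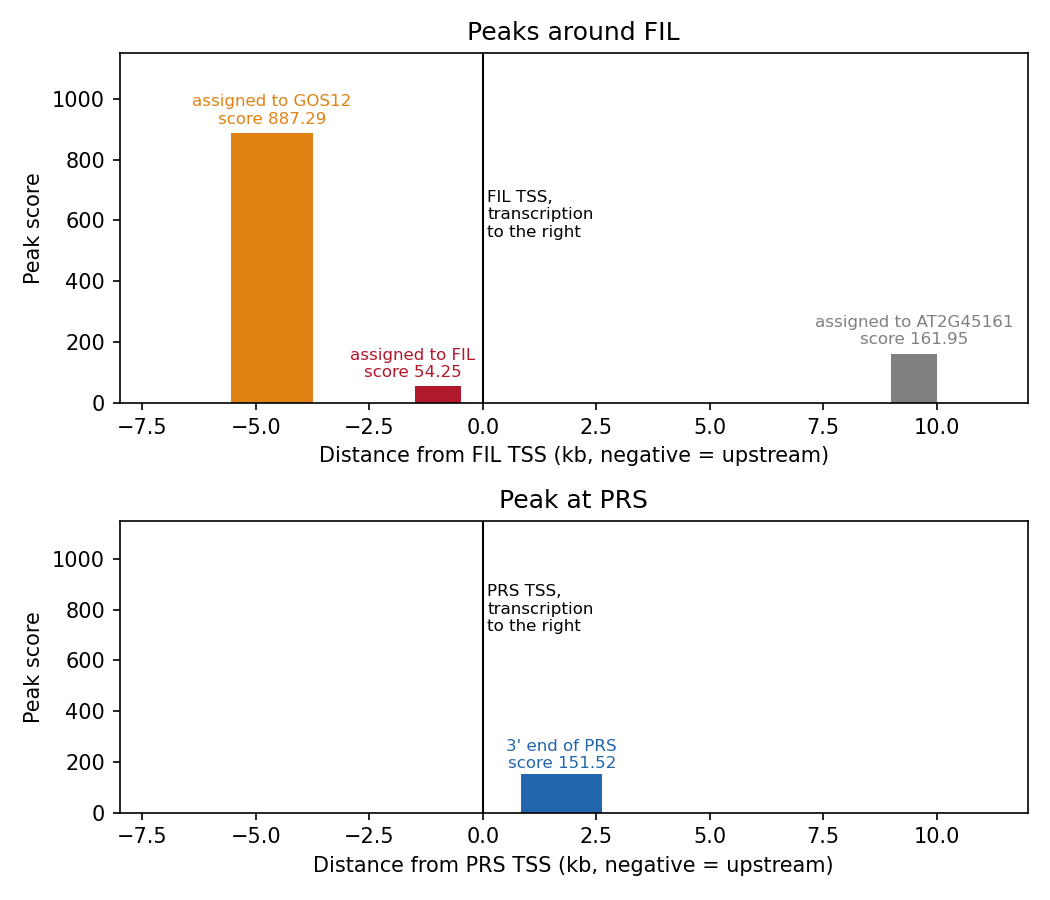
Peaks within 20 kb of FIL (top) and the peak at PRS (bottom), drawn to scale along the distance from each TSS in kb, with bar height giving the peak score. Upstream of FIL stand the peak assigned to GOS12 with a score of 887.29 and the low FIL promoter peak with 54.25. The PRS peak with 151.52 lies downstream of its TSS and was annotated at the termination site of PRS.

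PRS (AT2G28610), the WOX gene of lateral sepal and organ margins, had a peak of middle score annotated at its 3' end. It lay on chromosome 2 from 12262864 to 12264638, was 1775 bp wide and had a score of 151.52, rank 239 of 529, with 54.9% of the other peaks lower. The annotation placed its centre at the transcription termination site of PRS, 1738 bp downstream of the TSS. Its edges were 851 and 2625 bp downstream, so no part of the peak reached the PRS promoter. Of the 75 peaks at a termination site, 40 were, like this one, at the end of the gene that was also named as nearest promoter. Those 75 peaks had a median score of 162, and PRS ranked 42 among them.

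The surroundings of PRS also differed from those of FIL. The closest peaks were 33444 bp away at AT2G28671, a gene described only as encoding a hypothetical protein (score 876.61, rank 18), and 110060 bp away at LCR32, a defensin-like gene (58.76). No second peak thus stood within a few kb of PRS. The PRS peak was wider than most, with 20% of all peaks wider, whereas 80.3% were wider than that of FIL.

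**Figure D2:**
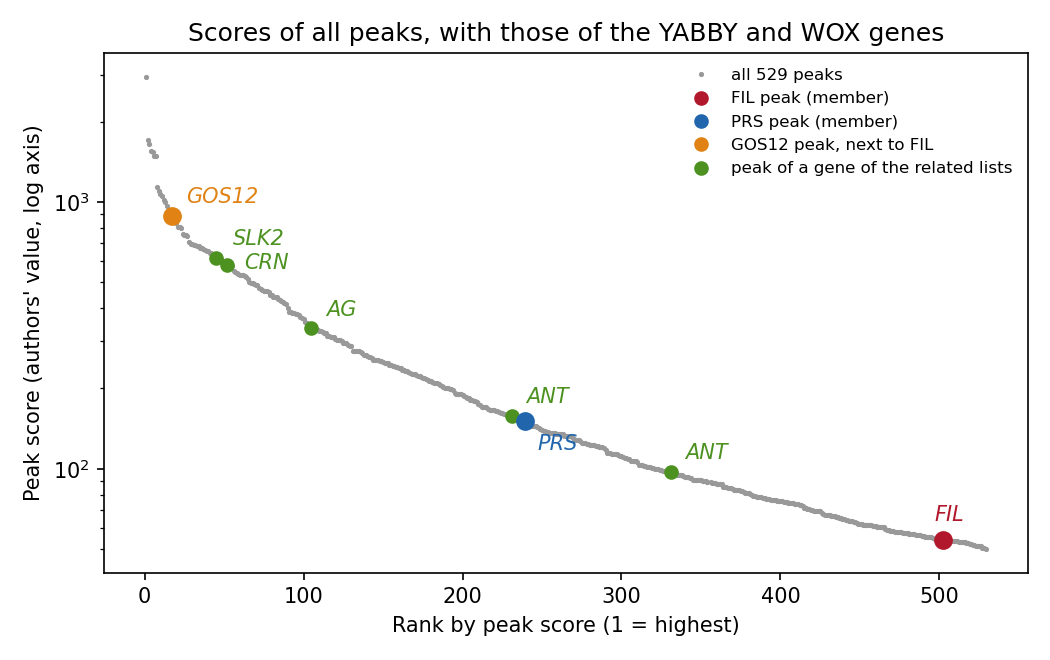
Peak score (log axis) against rank for all 529 peaks of the LFY library, with the FIL and PRS peaks, the GOS12 peak and those of genes from the related lists coloured. GOS12 stands at rank 17, PRS near the middle at 239 and FIL near the end at 502.

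The partners of both genes had no peak. YAB3 (AT4G00180) shares much of its function with FIL in leaves and flowers, and YAB5 (AT2G26580) is another YABBY gene of vegetative and floral organs. WOX1 (AT3G18010) acts redundantly with PRS in blade growth. CRC (AT1G69180) directs carpel polarity and nectaries, INO (AT1G23420) the outer integument of the ovule, and both act late in flower development. WUS (AT2G17950) was likewise not named by any peak. A member without a peak here is a gene to which no peak of this list was assigned at the authors' threshold. Binding below that threshold was not measured here.

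The members without a peak were placed by counting genes in chromosome order to the closest gene with a peak. YAB5 was 5 genes from AR781 (score 57.86), YAB3 6 genes from HAM3, a GRAS gene of the shoot meristem (231.39), and WUS 7 genes from AT2G17990 (122.63). CRC was 8 genes from AP1, whose promoter peak was the second strongest of the list (1710.21). INO was 8 genes from KNAT6, a KNOX homeobox gene of meristems and boundaries. The KNAT6 peak lay in an intron of that gene, was assigned to the nearest TSS of AT1G23360 and had a score of 143.84.

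WOX1 stood apart, 69 genes from ASPG1, a protease gene (85.46), and 199 genes from PAP1 (AT3G16500) on the other side (79.15). Over all 37329 nuclear loci without a peak the median was 32 genes, with quartiles of 12 and 69. Of these loci 17.8% had a gene with a peak within 8 genes, and 5 of the 6 members without a peak did. The 17.8% is over coding and non-coding loci, whereas all members are protein-coding, and the share among protein-coding loci was not computed. The limit of 8 was chosen after the values were seen. The closest genes concerned included the developmental regulators HAM3, AP1 and KNAT6, and also AR781 and AT2G17990, which are not described as such here. Other flanking genes were farther off. On their second side CRC was 28 genes from AT1G69420 (90.15), INO 30 genes from AT1G23700 (165.77), WUS 22 genes from BZIP27 (304.56), YAB3 23 genes from AT4G00305 (288.7) and YAB5 126 genes from AT2G27520 (75.51). BZIP27, also called FDP, is a bZIP gene related to FD. In the same count, PRS was 11 genes from AT2G28671 and 22 from LCR32. FIL was 1 gene from GOS12 and 13 from AT2G45070, a SEC61 BETA gene at whose end lay a peak assigned to AT2G45060 (304.54). GOS12 itself was 31 genes from LBD18, a LOB domain gene (487.36). By position, the next peak after that of GOS12 on the side away from FIL was 77921 bp off, assigned to AT2G45412 (58.11). Loci absent from the gene table, AT2G45161 among them, did not enter this count, which can therefore pass over peaks. Of the 512 nearest loci, 499 were in that table.

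**Figure D3:**
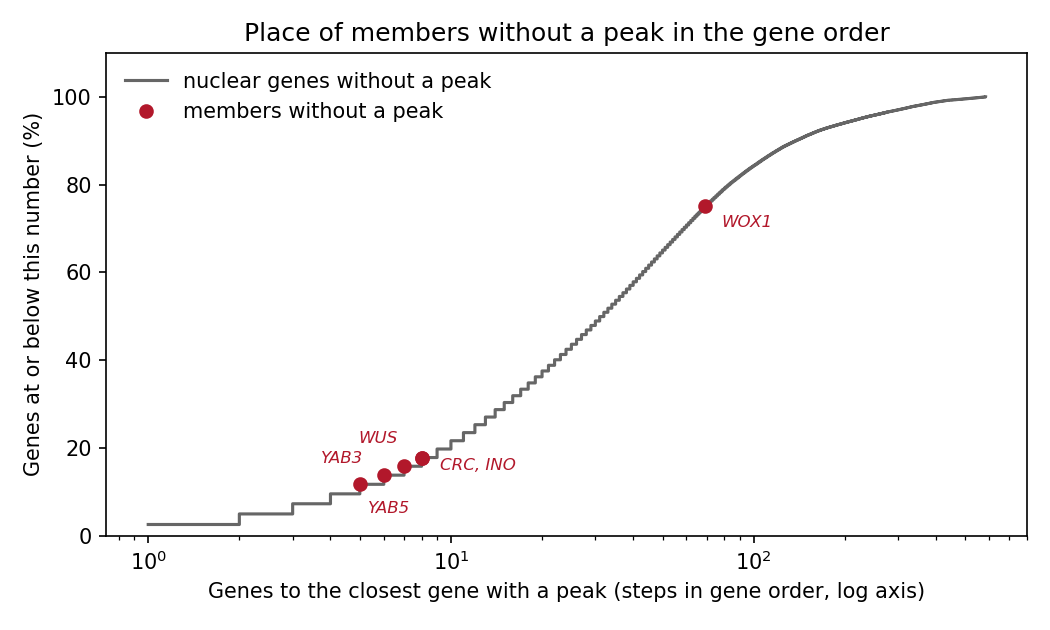
Cumulative share (%) of the 37329 nuclear loci without a peak against the number of genes to the closest gene with a peak (log axis), with the 6 members without a peak marked on the curve. YAB5, YAB3, WUS, CRC and INO stand at 5 to 8 genes and WOX1 at 69.

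No peak was assigned to the remaining genes of both families, beside 1.5% of all nuclear loci with one. With YAB2 added, 1 of 6 YABBY genes had one (16.7%, Wilson interval 3.01 to 56.4), and with WOX2 and WOX4 to WOX14 added, 1 of 15 WOX genes (6.67%, interval 1.19 to 29.8). None of these 13 added genes was named, which allows a share of up to 23.1% (3 counts of the total, counting error alone) and does not set them apart from all loci. In chromosome order 3 of the 13 were within 8 genes of a gene with a peak, beside 17.8% of all loci without a peak, and their median was 57 genes, with a range of 1 to 124. Closest was WOX9 (AT2G33880, listed as HB-3, also STIMPY), which promotes meristem growth.

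WOX9 and the abaxial auxin response gene ETTIN (ETT) are the protein-coding neighbours on either side of AT2G33870, a RAB GTPase gene. AT2G33870 was assigned an intergenic peak 2236 bp downstream of its TSS, on chromosome 2 from 14335574 to 14336457. Its score of 50.03 was the lowest of all 529, and the ETT and WOX9 TSS cannot have been closer to it than 2236 bp. It names neither ETT nor WOX9.

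Genes that act with the members were next described through 6 lists with 57 genes, which include the 13 added family genes above. Of the 57, 4 had a peak (7.02%, Wilson interval 2.76 to 16.7, counting error only), beside 1.5% of all nuclear loci and 1.98% of protein-coding loci. Among these 4, AG and ANT were known to have peaks when their list was drawn up, so this share is a description and was not tested. None was found at the 6 KANADI and ARF genes of abaxial fate (KAN1, KAN2, KAN3, ATS, ETT and ARF4), which allows up to 50% (3 counts of the total). None was found at the 7 adaxial genes (PHB, PHV, REV, CNA, ATHB8, AS1 and AS2), which by the same limit allows up to 42.9%. With 1.5% of all nuclear loci named by a peak, lists of this size are too small for a count of 0 to set them apart.

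In the CLAVATA pathway, which limits WUS activity, CORYNE (CRN, AT5G13290) was the 1 of 10 genes with a peak (10%, Wilson interval 1.79 to 40.4). The background was 1.5% of all nuclear loci and 1.98% of protein-coding loci, and no test was made. CRN encodes a membrane-bound pseudokinase that signals together with CLV2. Its promoter peak (chromosome 5 from 4254579 to 4256599) had a score of 582.44, rank 52, centred 695 bp upstream and reaching 315 bp past the TSS. CLV1, CLV2 and CLV3 had none. Of the 6 co-repressor genes, SEUSS-LIKE 2 (SLK2, AT5G62090) had a peak (1 of 6, 16.7%, interval 3.01 to 56.4, beside the same background). SEUSS-like adaptors bind the co-repressor LEUNIG (LUG), a partner of YABBY proteins. The SLK2 peak (chromosome 5 from 24938774 to 24939886) had a score of 617.59, rank 45, and was centred 221 bp upstream, over the TSS. LUG itself had none, although its protein-coding neighbour YUC1, an auxin synthesis gene, was assigned one 3088 bp downstream of its TSS (62.31, rank 449).

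Among 15 regulators of carpel, ovule and blade growth, AGAMOUS (AG) and AINTEGUMENTA (ANT) had peaks, as was known when the list was drawn up. Their share was 13.3% (2 of 15, interval 3.74 to 37.9), beside 1.5% of all nuclear loci and 1.98% of protein-coding loci. AG shuts down WUS in the flower and acts upstream of CRC. Its peak was in intron 2, where LFY and WUS act on AG in textbook accounts, with a score of 336.8 (rank 105). ANT promotes organ growth. Its peaks were 5256 bp upstream (158.17) and 934 bp upstream (97.49). The other 13, among them SUP, SPT, JAG, NUB and the NGATHA genes, had none. By score, the peaks of CRN, SLK2 and AG and the farther ANT peak were higher than that of PRS, and all peaks of these lists were higher than that of FIL.

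**Figure D4:**
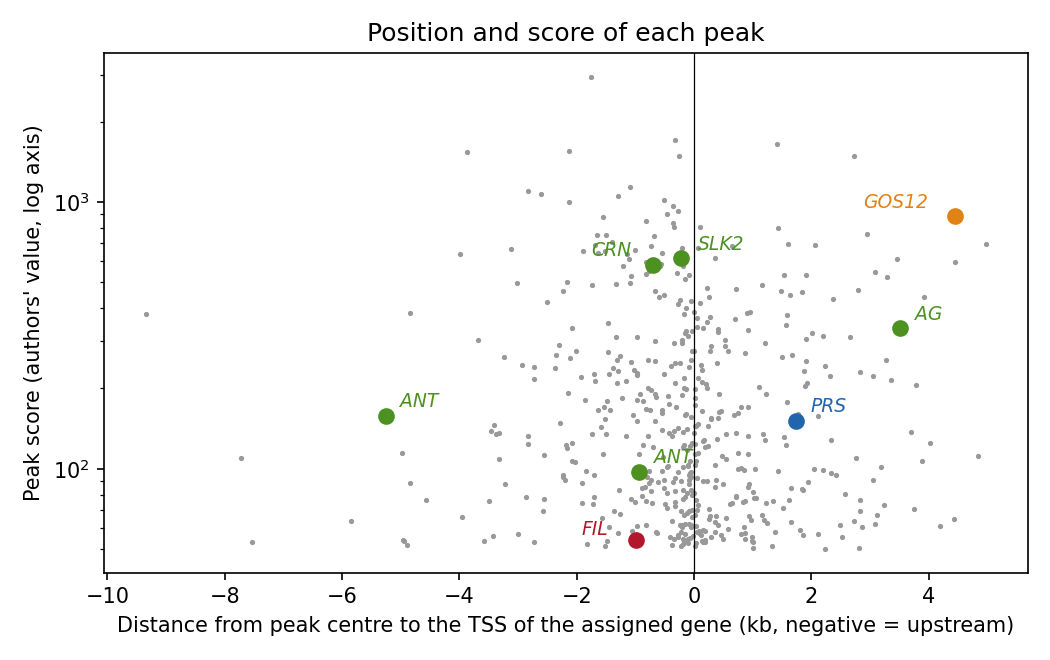
Peak score (log axis) against the distance in kb from the peak centre to the TSS of the assigned gene, negative upstream, for all 529 peaks, with those of FIL, PRS, GOS12 and the related genes coloured. FIL stands low at 995 bp upstream, PRS at 1738 bp downstream and GOS12 high at 4448 bp downstream of its TSS.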

How the data were processed

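The data are 1 deposited peak list. The LFY library was compared with a contrast that is not named, and the resulting peaks were annotated by HOMER annotatePeaks.pl (tair10), per the file headers. MACS 1.4, FastQC, HOMER and build TAIR10 are named in the submitters' processing notes. The sources used here do not give the aligner, the calling threshold, duplicate handling or pooling. The values are the peak score the authors deposited, whose scale no header states, and positions and TSS distances in bp. Regions high in both libraries can be lost when a caller compares them.

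Peaks were matched to members by locus. Names and gene order came from RefSeq (assembly TAIR10.1), where 499 of 512 nearest loci and all 65 listed loci were found. Its coordinates were not used. Members and lists were chosen with earlier results of these data known. Genes named are the members, GOS12, list genes with a peak, and the flanking genes with a peak in gene order. List genes without a peak, neighbours of list genes, the peaks at AT2G45161 and AT2G45412 and the pair at AT3G07350 were named after their values were seen. The comparisons of adjacent pairs and of promoter positions were added then. TSS positions assume peak centres at the midpoint. The strand reading and gene counts were tested on simulated data. Score thresholds, distance limits, ways to assign genes and other rankings were tried as alternatives. The planned search for the LFY motif and the protein alignment need sequences, which were not used here. Tools were Python 3.11.15, NumPy 2.4.6, pandas 2.3.3, SciPy 1.17.1 and matplotlib 3.10.9.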

Additional observations from a re-analysis of the deposited data

How the results depend on the processing

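The count of members with a peak stayed at 2 of 8, FIL and PRS, with peaks within 3 kb of the TSS, with the nearest promoter column only and with protein-coding neighbours counted. It was 1 among the 265 higher-scoring peaks (PRS, background 0.755%), 0 among the 133 highest-scoring (background 0.377%) and 1 with peaks within 1 kb of the TSS (FIL, background 0.865%). The count in the related lists was 4 of 57 (background 1.5%). It stayed at 4 among the 265 higher-scoring peaks (background 0.755%) and by nearest promoter only (1.32%), and was 3 within 3 kb (1.36%). Among the 133 highest-scoring peaks only CRN, SLK2 and AG were left (0.377%), and within 1 kb only CRN, SLK2 and ANT (0.865%). The share of all loci with a peak, 1.5%, was 1.98% among protein-coding loci and 1.32% by nearest promoter only. Ranked by score per kb of width, the share of peaks below that of FIL was 16.7% (5.11% by score), of PRS 42.8% (54.9%) and of GOS12 93% (97%). Within its annotation class the share was 44.6% for PRS and 93.3% for GOS12, and on its chromosome 62.7% for PRS. Among peaks of its chromosome and of its class, the share for FIL was 6.67% and 3.76%, and on its chromosome that for GOS12 was 97.3%. No paired analysis was possible because there is 1 library per group. Without read counts, the precision of a single peak is unknown.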

Other observations

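Counting a peak of a protein-coding neighbour as well, 7 of the 57 related genes had one (12.3%), beside 3.78% of all nuclear loci. The 3.78% is over coding and non-coding loci, although only protein-coding loci were added as neighbours. The share among protein-coding loci was not computed for this way of counting. Among the 7, AG and ANT were known to have peaks when their list was drawn up. The 12.3% is therefore a description and was not tested. The genes added were ETT, WOX9 and LUG, whose neighbours' peaks scored 50.03 (AT2G33870, beside both ETT and WOX9) and 62.31 (YUC1). No member was added: FIL, the neighbour of GOS12, was counted already, and no member without a peak was a protein-coding neighbour of a gene named as nearest promoter.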
